A study of Homo sapiens with 5 samples.

Results

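The epithelial keratins KRT5, KRT6A, KRT7, KRT8, KRT14, KRT15, KRT16, KRT17, KRT18 and KRT19 were followed in gefitinib-resistant HCC827/GR cells and in parental HCC827 cells. These 10 genes comprise 4 keratins of simple epithelia (KRT7, KRT8, KRT18 and KRT19) and 6 of basal or stressed stratified epithelia (KRT5, KRT14, KRT15, KRT6A, KRT16 and KRT17). Each was taken by its symbol from a deposited table of 37181 genes or assembled loci, and 7 of the 10 symbols were found there, each with a single entry. KRT7 and KRT15 had no entry of their own name, but their transcripts were found inside joint entries, which are described separately below and were picked after the table had been seen. KRT5 was not analysed here.

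HCC827 is a human lung adenocarcinoma cell line whose EGFR gene carries a deletion in exon 19, and the labels give this genotype to all samples. HCC827/GR cells, labelled gefitinib resistant, were raised from the parental line under stepwise higher doses of gefitinib, an inhibitor of the EGFR kinase, for more than 6 months, so the resistant cells are a single derived line. The data were 5 RNA-sequencing libraries, namely replicates 1, 2 and 3 of HCC827/GR and replicates 2 and 3 of HCC827, labelled gefitinib sensitive. No label says whether replicates came from separate cultures, so the p-values measure only the spread between these libraries, which may be technical. Values are FPKM, that is fragments scaled for transcript length and for library size. They allow levels of different genes to be compared per length, but they carry no read numbers, and sequencing depth cannot be read from them.

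Keratins are the intermediate filament proteins of epithelial cells. A filament is built from pairs of a type II keratin (KRT5, KRT6A, KRT7 and KRT8 here) and a type I keratin (KRT14 to KRT19 here), and neither type forms filaments alone. KRT8 and KRT18 are the first pair made in simple epithelium, and KRT7 and KRT19 accompany them in glandular and ductal cells, including those of the lung. KRT5 and KRT14 mark basal cells of stratified epithelia, whereas KRT6A, KRT16 and KRT17 are induced in wounded or rapidly dividing epidermis.

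KRT8, KRT18 and KRT19 were abundant in every library and lower in all HCC827/GR libraries than in either HCC827 library. In proportion to its parental level, KRT19 fell most. Their summed level was lower in the resistant cells, at 503.3 ± 66.0 FPKM (SD, n = 3) against 1013 ± 100.6 FPKM (SD, n = 2), a ratio of 0.497. The basal and stress keratins found by name had group means of at most 0.629 FPKM in both lines. They made up under 0.3% of the keratin FPKM of any library. An entry was tested only if its mean over the 5 libraries was at least 0.5 FPKM. This was reached by 3 of the 7 members and by 16189 of all 37181 entries. By limma on log2(FPKM + 1), where an entry was called if it changed 2-fold or more in either direction with an unadjusted p under 0.05, 1 of these 3 members, KRT19, was lower in HCC827/GR. Among all 16189 entries tested, 3.97% were lower and 2.96% higher by the same fold and p thresholds. No member was higher by them, and at an unadjusted p under 0.05 alone, or with Ballgown's model, none was higher either. Without HCC827 replicate 2, KRT18 also passed, at a log2 fold change of -1.11.

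**Figure D1:**
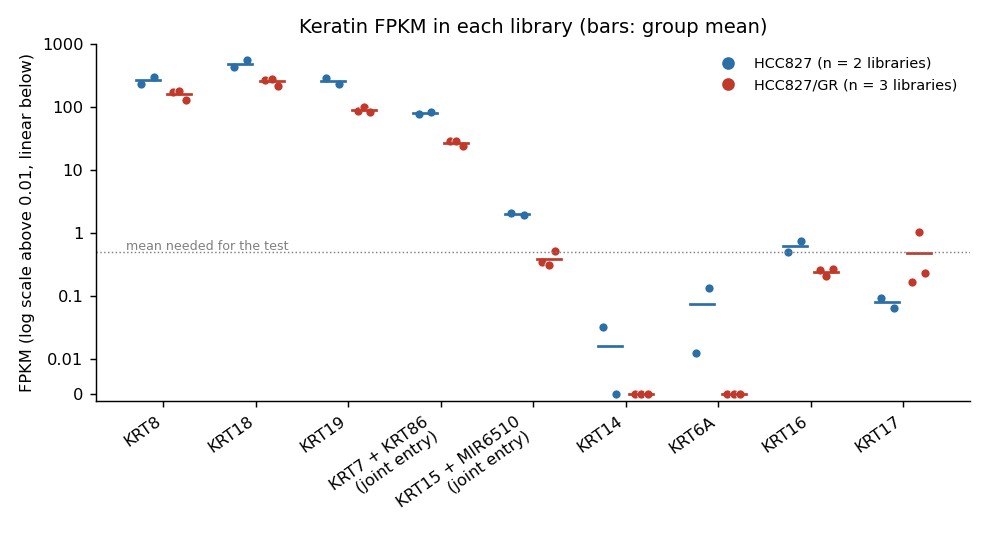
FPKM of the keratins in each library, on an axis that is logarithmic above 0.01 and linear below, with a point per library and a bar at each group mean (HCC827, n = 2 libraries, and HCC827/GR, n = 3). KRT8, KRT18 and KRT19 lie between 82.5 and 550.0 FPKM with the groups apart, whereas KRT6A, KRT14, KRT16 and KRT17 have group means under 1 FPKM.

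KRT8, the type II keratin of simple epithelium, lies on chromosome 12 of GRCh38 from 52897187 to 52949954. Its level was 231.8 and 304.3 FPKM in HCC827 replicates 2 and 3, and 172.2, 177.8 and 127.3 FPKM in HCC827/GR replicates 1, 2 and 3. All resistant libraries were below both parental ones, at 159.1 ± 27.7 FPKM (SD, n = 3) against 268.1 ± 51.3 FPKM (SD, n = 2). On the log2 scale KRT8 changed by -0.75 with a standard error of 0.212, and the Benjamini-Hochberg adjusted p over all entries tested was 0.101 by limma. This falls short of both the fold threshold and an adjusted p under 0.05.

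KRT18, the type I partner of KRT8, lies beside it on chromosome 12 from 52948871 to 52952901 and was the most abundant member in every library. Its level was 425.0 and 550.0 FPKM in HCC827 replicates 2 and 3, and 269.7, 277.6 and 218.8 FPKM in HCC827/GR replicates 1, 2 and 3. The groups did not overlap. On the log2 scale KRT18 changed by -0.93 with a standard error of 0.179 (limma adjusted p = 0.0413), just short of the fold threshold. In the annotation, the ends of KRT8 and KRT18 overlap on opposite strands. Since the sources used here do not say whether the libraries kept the strand, reads from the shared stretch cannot be assigned to either gene with certainty.

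KRT19, a short type I keratin of simple and ductal epithelium that lacks most of the tail domain, lies on chromosome 17 from 41523617 to 41528308. Its level was 284.7 and 229.5 FPKM in HCC827 replicates 2 and 3, and 85.3, 98.6 and 82.5 FPKM in HCC827/GR replicates 1, 2 and 3. No resistant library reached 100 FPKM, and no parental one was under 229.5 FPKM. The means were 88.8 ± 8.61 FPKM (SD, n = 3) in HCC827/GR and 257.1 ± 39.0 FPKM (SD, n = 2) in HCC827, a parental level 2.89 times as high. KRT19 changed by -1.52 on the log2 scale (standard error 0.148, limma adjusted p = 0.00996). Adjusted p-values under 0.05 in the lower direction were held by 5.71% of all entries tested, and by KRT18 and KRT19 among the members.

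The groups of these 3 keratins were fully separated, as were those of 23.4% of all entries tested in the same direction. For a single gene, the exact permutation test (two-sided) gave p = 0.1, which is the lowest value possible with 3 and 2 libraries, so it could not pass 0.05 for any member. RNA from a culture is a mean over its cells, and fewer cells making a keratin and less keratin RNA per cell cannot be told apart.

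KRT7, the type II keratin that accompanies KRT8 in glandular cells, lies on chromosome 12 from 52232520 to 52252186. Its 13 annotated transcripts were found in an entry named KRT86, together with 2 of KRT86, a hair keratin gene, and 5 assembled ones, so the value is a joint one. This entry was at 77.7 and 83.1 FPKM in HCC827 replicates 2 and 3, and at 28.7, 28.8 and 23.7 FPKM in HCC827/GR replicates 1, 2 and 3. The groups did not overlap. The entry changed by -1.54 on the log2 scale (standard error 0.125, limma adjusted p = 0.00647). KRT7-AS, an antisense gene over the KRT7 locus, was at 49.2 and 49.4 FPKM in HCC827 and at 15.7, 16.4 and 13.3 FPKM in HCC827/GR. Without strand information, reads from the stretch that KRT7-AS shares with KRT7, which holds 10.4% of the windows of 50 bases along the KRT7 transcript, cannot be told apart.

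Within a library, the simple keratins did not keep equal proportions. KRT19 per unit of KRT18 was 0.670 and 0.417 in HCC827 replicates 2 and 3, and 0.316, 0.355 and 0.377 in HCC827/GR replicates 1, 2 and 3. The groups did not overlap, but HCC827 replicate 3 lay nearer to the resistant libraries than to HCC827 replicate 2. The KRT7-KRT86 entry per unit of KRT8 was 0.335 and 0.273 in HCC827 and 0.166, 0.162 and 0.186 in HCC827/GR, also with no overlap. For both ratios the exact permutation test (two-sided) gave p = 0.1. KRT8 per unit of KRT18 differed less in size, at 0.545 and 0.553 in HCC827 and 0.638, 0.641 and 0.582 in HCC827/GR, again with no overlap (exact permutation test, two-sided, p = 0.2). The type II sum (KRT8 and the KRT7-KRT86 entry) was 0.467 ± 0.0431 times the type I sum (KRT18 and KRT19) in HCC827 (SD, n = 2) and 0.539 ± 0.0335 times in HCC827/GR (SD, n = 3), also with no overlap (exact permutation test, two-sided, p = 0.2). KRT8, KRT18 and KRT19 together took 0.678% and 0.669% of all FPKM in HCC827 replicates 2 and 3, against 0.314%, 0.384% and 0.276% in HCC827/GR replicates 1, 2 and 3.

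**Figure D2:**
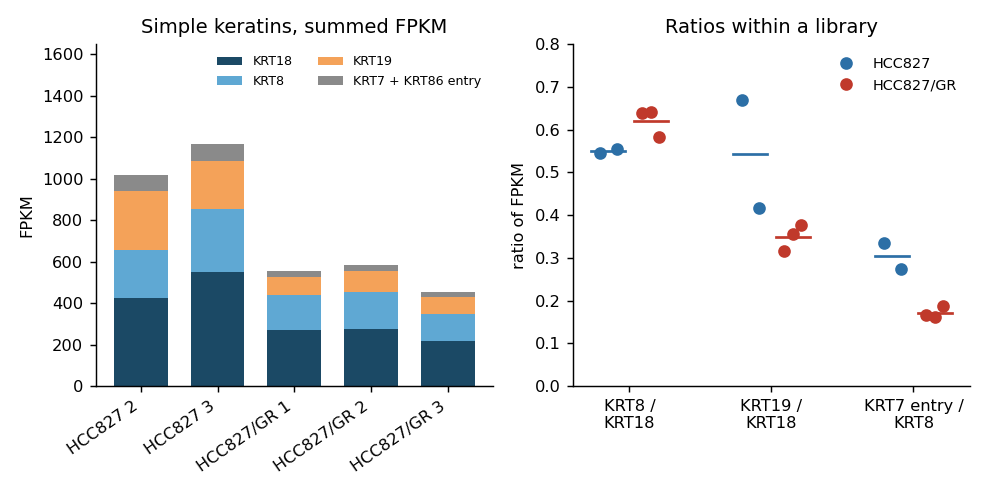
Left, FPKM of KRT18, KRT8, KRT19 and the KRT7-KRT86 entry stacked for each library; right, ratios of FPKM within each library, with a bar at each group mean. The stacked height is 1019 and 1167 FPKM in HCC827 and between 452.4 and 583.0 FPKM in HCC827/GR, and the KRT19 and KRT7 ratios are lower in every resistant library.

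The basal and stress keratins were compared with the simple ones by their share of the FPKM of the 7 members. KRT6A, KRT14, KRT16 and KRT17 together reached 0.636 and 0.964 FPKM in HCC827 replicates 2 and 3, and 0.429, 1.25 and 0.507 FPKM in HCC827/GR replicates 1, 2 and 3. The groups overlapped, and the means were 0.800 ± 0.232 FPKM (SD, n = 2) and 0.728 ± 0.451 FPKM (SD, n = 3). As a share of all member FPKM this was 0.0675% and 0.0889% in HCC827 and 0.0813%, 0.225% and 0.118% in HCC827/GR (exact permutation test, two-sided, p = 0.4). With the KRT7 and KRT15 joint entries counted in, the share was 0.268% and 0.248% in HCC827 and 0.140%, 0.266% and 0.226% in HCC827/GR. The comparison depended on which entries were counted. With the KRT15 joint entry added, the basal and stress sum was 2.82 ± 0.116 FPKM in HCC827 (SD, n = 2) and 1.12 ± 0.397 FPKM in HCC827/GR (SD, n = 3), with no overlap. With the pseudogenes added to their parents, the share was 1.75% in HCC827 and 0.152% in HCC827/GR on average.

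None of these 4 genes reached the mean of 0.5 FPKM, so they have no place in the test across entries. KRT16, a type I keratin of wounded epidermis, was at 0.496 and 0.762 FPKM in HCC827 replicates 2 and 3, and 0.258, 0.206 and 0.274 FPKM in HCC827/GR replicates 1, 2 and 3. It was lower in every resistant library, and tested without the filter its log2 fold change was -0.38 (limma adjusted p = 0.203). KRT17, the type I keratin induced by injury, was at 0.0945 and 0.0663 FPKM in HCC827, and at 0.171, 1.04 and 0.233 FPKM in HCC827/GR. Every resistant library was above both parental ones. The higher mean of KRT17 in HCC827/GR rested largely on replicate 2. Without that library the log2 difference was 0.15 in place of 0.41. Its 5 pseudogenes listed summed to 143% and 207% of the KRT17 value in HCC827, and to between 4.17% and 17.8% in HCC827/GR. With them added, KRT17 was at 0.230 and 0.204 FPKM in HCC827 and at 0.192, 1.08 and 0.274 FPKM in HCC827/GR, and the groups overlapped. KRT6A, the type II stress keratin, was listed at 0 in all HCC827/GR libraries and at 0.0127 and 0.136 FPKM in HCC827. KRT14, the type I basal cell keratin, was listed at 0.0327 FPKM in HCC827 replicate 2 and at 0 in the other libraries.

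KRT15, a type I keratin of basal cells, lies on chromosome 17 from 41513743 to 41522529, next to KRT19. Its 9 annotated transcripts share an entry with the microRNA gene MIR6510. This joint entry was at 2.10 and 1.94 FPKM in HCC827 replicates 2 and 3, and at 0.350, 0.308 and 0.518 FPKM in HCC827/GR replicates 1, 2 and 3. It was above 1 FPKM in both parental libraries only, and it reached the filter through them. It changed by -1.12 on the log2 scale (standard error 0.130, limma adjusted p = 0.0130).

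Of 26 other keratin genes listed by name, 4 reached the mean of 0.5 FPKM and the remaining 22 had means of at most 0.254 FPKM. KRT4, a type II keratin of oesophageal and other mucosal epithelium, was at 3.22 and 6.16 FPKM in HCC827 and listed at 0 in all HCC827/GR libraries, so it reached the filter through HCC827 alone. Its size of change on the log2 scale is set by the pseudocount, at -2.46 with 1 and -5.51 with 0.1, and gives no fold. KRT80, a type II keratin found in most epithelia, was at 14.4 and 29.9 FPKM in HCC827 replicates 2 and 3 and at 31.3, 33.0 and 28.7 FPKM in HCC827/GR. The groups overlapped, and the log2 fold change of 0.55 (limma adjusted p = 0.336) became 1.05 without HCC827 replicate 3, where KRT80 passed both thresholds as higher, and 0.046 without HCC827 replicate 2. KRT10, a type I keratin of differentiating epidermis, had a log2 fold change of -0.39 (limma adjusted p = 0.236), which was -0.21 without HCC827 replicate 3 and -0.57 without HCC827 replicate 2. The entry named KRT222, which also holds transcripts of SMARCE1, had one of 0.12 (limma adjusted p = 0.494), which was 0.049 without HCC827 replicate 2 and 0.19 without HCC827 replicate 3.

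**Figure D3:**
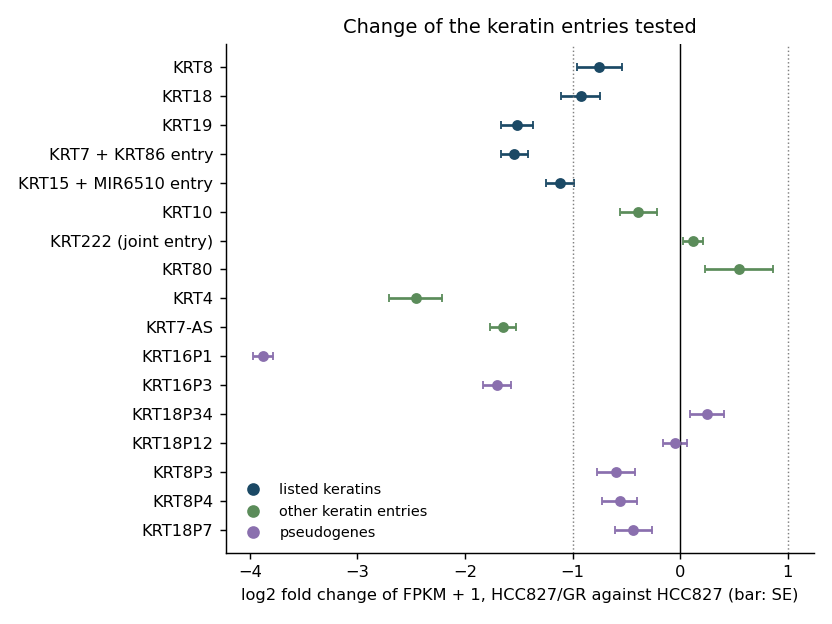
Log2 fold change of FPKM + 1, HCC827/GR against HCC827, with its standard error from limma, for every keratin entry with a mean of at least 0.5 FPKM. KRT7-AS is an antisense gene, and dotted lines mark a change of 2-fold. KRT19, the entries holding KRT7 and KRT15, KRT4, KRT7-AS, KRT16P1 and KRT16P3 lie beyond the lower line, and no entry lies beyond the upper one.

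Keratin genes have many processed and duplicated copies, and reads can be shared among them. The KRT16 family, whose copies differed widely between the lines, shows how alike such sequences are. The 90 bases below are coding bases 682 to 771 of KRT16, in exon 3 on the minus strand of chr17:41611345-41611434 (GRCh38, GENCODE 29 transcripts), each beside the aligned stretch of its copies. Capitals mark bases that differ from KRT16.
KRT16: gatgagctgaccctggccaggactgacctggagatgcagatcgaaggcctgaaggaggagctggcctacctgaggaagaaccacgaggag
KRT16P1: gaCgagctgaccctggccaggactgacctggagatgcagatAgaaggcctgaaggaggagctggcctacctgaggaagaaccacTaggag
KRT16P3: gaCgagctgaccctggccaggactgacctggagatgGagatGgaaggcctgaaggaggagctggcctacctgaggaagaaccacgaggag
KRT14: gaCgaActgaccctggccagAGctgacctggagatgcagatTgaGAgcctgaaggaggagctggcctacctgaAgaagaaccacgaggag
In this stretch KRT16P1 and KRT16P3 each differ from KRT16 at 3 of 90 bases, fewer than the 8 at which the functional gene KRT14 differs.

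KRT16P1, a KRT16 pseudogene on chromosome 17 from 18432051 to 18442895, aligned to KRT16 at 94.4% identity over 1126 bases of its transcript. It was at 13.5 and 14.6 FPKM in HCC827 replicates 2 and 3, and at 0.0325, 0.0142 and 0.0153 FPKM in HCC827/GR replicates 1, 2 and 3. The parental level was thus above KRT16 itself, and the resistant level was near 0. KRT16P1 changed by -3.88 on the log2 scale (standard error 0.0929, limma adjusted p = 0.00157), and by -6.88 with a pseudocount of 0.1. KRT16P3, on the same chromosome from 20501513 to 20512357, was at 2.43 and 2.12 FPKM in HCC827 and at 0.0160, 0 and 0 FPKM in HCC827/GR (log2 fold change -1.70, limma adjusted p = 0.00552, and -4.50 with a pseudocount of 0.1). KRT16P2, named after its values were seen because it falls under the filter, was at 0.849 and 0.915 FPKM in HCC827 and at 0, 0.00488 and 0 FPKM in HCC827/GR. All 3 copies were thus high in the parental libraries only, and KRT16P1 and KRT16P3 reached the filter through them.

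Summed with its 3 pseudogenes, KRT16 was at 17.3 and 18.4 FPKM in HCC827 and at 0.307, 0.225 and 0.289 FPKM in HCC827/GR, and its log2 fold change was -3.89. This sum, too, reached the filter through HCC827 alone. Most of the summed FPKM in HCC827 thus sat in the entries of the copies. Of all windows of 50 bases along the KRT16 transcript, 22.0% also occur in another gene, and of all windows of 100 bases 7.18%. Reads that long from those windows could be placed in either gene, and the part this plays in the values was not tested. These shares were not with the pseudogenes alone. At 50 bases KRT16P3 shared the most windows, the functional gene KRT14 shared 11.3% and KRT16P1 shared 7.08%. At 100 bases KRT14 shared the most, at 3.82%, followed by KRT16P3 and KRT16P2, and KRT16P1 shared none.

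**Figure D4:**
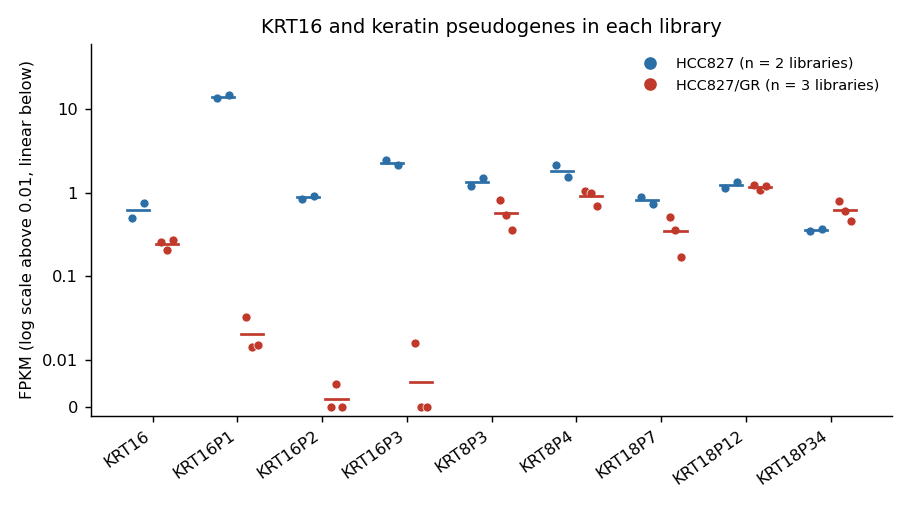
FPKM of KRT16 and of keratin pseudogenes in each library, on an axis that is logarithmic above 0.01 and linear below, with a bar at each group mean (HCC827, n = 2 libraries; HCC827/GR, n = 3). KRT16P1, KRT16P2 and KRT16P3 lie between 0.849 and 14.6 FPKM in HCC827 and under 0.04 FPKM in every HCC827/GR library.

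For the abundant keratins, copies weighed little in the table. The 26 KRT8 pseudogenes listed summed to between 1.29% and 1.80% of the KRT8 value in each library, and the 26 of KRT18 to between 0.608% and 1.31% of the KRT18 value. Adding them to their parent left the log2 fold changes at -0.75 for KRT8 and -0.92 for KRT18. Their sequences overlap far more than their values. Windows of 50 bases shared with another gene were 39.7% for KRT8, mostly with its pseudogenes, and 52.5% for KRT18. The overlapping KRT8 transcripts were the largest single source for KRT18, sharing 23.8% of its windows. For KRT19 the share was 1.79%, and no window of 100 bases was shared. Of the other pseudogenes that reached 0.5 FPKM, the log2 fold changes were -0.59 for KRT8P3, -0.56 for KRT8P4, -0.44 for KRT18P7, -0.04 for KRT18P12 and 0.25 for KRT18P34, none with an adjusted p under 0.05 by limma. With a pseudocount of 0.1, KRT8P3 was at -1.17 and passed the fold and p thresholds. The direction of KRT18P12 turned under quantile normalization and without HCC827 replicate 3, at 0.045 and 0.022.

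Keratin filaments are anchored at desmosomes and hemidesmosomes by linker proteins, and other proteins bind keratins elsewhere. Of 15 partner genes of both kinds, 13 were found by name and 12 tested. By the thresholds 2 passed, both lower in HCC827/GR, while 3.97% of all entries tested were lower and 2.96% higher. JUP, which encodes plakoglobin and ties desmosomal cadherins to the filaments, was at 33.2 and 23.0 FPKM in HCC827 and at 7.76, 7.90 and 5.57 FPKM in HCC827/GR (log2 fold change -1.84, standard error 0.223, limma adjusted p = 0.0145). PKP3, the desmosomal protein plakophilin 3, was at 18.1 and 18.5 FPKM in HCC827 and at 6.31, 5.45 and 6.90 FPKM in HCC827/GR (log2 fold change -1.42, standard error 0.118, limma adjusted p = 0.00694). The median log2 fold change of the 12 was -0.27, against 0.001 over all entries tested. DSP, the desmoplakin gene at the core of the plaque, had values of 13.2 and 13.9 FPKM in HCC827 and 19.8, 20.7 and 10.3 FPKM in HCC827/GR, which overlapped. SFN, which encodes a 14-3-3 protein that binds keratins, was listed at 0 in both HCC827 libraries. In HCC827/GR replicates 1, 2 and 3 it was at 0, 1.10 and 13.2 FPKM, so it reached the filter through HCC827/GR alone. Its value thus differed mainly among the resistant libraries. DSP and SFN were picked for mention after their values were seen.

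Of 16 other intermediate filament genes, all were listed and 8 tested. Their median log2 fold change was -0.43, against 0.001 over all entries tested, and 5 of the 8 were below 0. LMNB1, at -0.87 (limma adjusted p = 0.0255), and SYNC, at 0.94 (limma adjusted p = 0.0176), fell short of the fold threshold. VIM, which encodes vimentin, the filament protein of mesenchymal cells, passed the thresholds as higher, as did 2.96% of all entries tested. It was at 37.8 and 63.3 FPKM in HCC827 replicates 2 and 3 and at 106.3, 92.9 and 132.7 FPKM in HCC827/GR replicates 1, 2 and 3, so that the resistant libraries were all above the parental ones. VIM changed by 1.14 on the log2 scale (standard error 0.276, limma adjusted p = 0.0700), and without HCC827 replicate 2 it was 0.78 and under the fold threshold. In HCC827/GR, VIM stayed below KRT18 in each library, at 110.6 against 255.4 FPKM on average. Its mean was above the 88.8 FPKM of KRT19, although in replicate 2 KRT19 was higher.

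Several transcription factors are known to act on keratin or other epithelial genes. Of 14 such regulators, 11 were tested and 5 were lower in HCC827/GR by the thresholds, against 3.97% of all entries tested. The median log2 fold change was -0.74, against 0.001 over all entries tested. GRHL2, EHF and OVOL1 reached the filter only through the HCC827 libraries, so the filter favoured the direction of this count and median. GRHL2, a grainyhead factor that maintains epithelial genes, was at 3.82 and 5.59 FPKM in HCC827 and at 0.0122, 0.0203 and 0.00963 FPKM in HCC827/GR (log2 fold change -2.47, standard error 0.169, limma adjusted p = 0.00469). EHF, an ETS factor of epithelial cells, was at 6.18 and 5.52 FPKM in HCC827 and at 0.312, 0.241 and 0.0602 FPKM in HCC827/GR (log2 fold change -2.51, standard error 0.140, limma adjusted p = 0.00275). Both were near 0 in each resistant library. KLF5, OVOL1 and KLF4, zinc finger factors of epithelial differentiation, had log2 fold changes of -1.30, -1.35 and -1.24 (limma adjusted p = 0.0355, 0.0429 and 0.0874). Without HCC827 replicate 3 those of OVOL1 and KLF4 were -0.96 and -0.82 and no longer passed. TP63, the basal cell factor, was under the filter and is named after its values were seen. It was at 0.234 and 0.191 FPKM in HCC827 and at 0, 0 and 0.00414 FPKM in HCC827/GR.

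**Figure D5:**
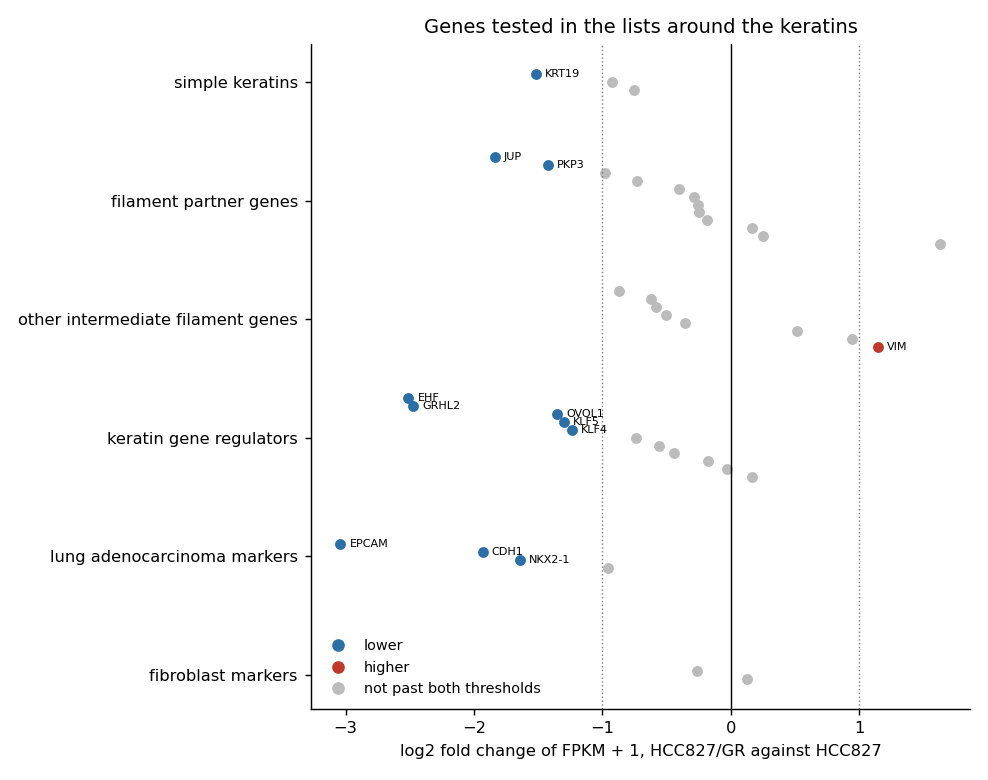
Log2 fold change of FPKM + 1, HCC827/GR against HCC827, for the tested genes of 6 of the lists (squamous, leukocyte and endothelial genes are not drawn), a point per gene, with genes past both thresholds named and dotted lines at a change of 2-fold. Genes past the thresholds are lower in HCC827/GR in the keratin, partner, regulator and lung marker lists, and VIM is higher. The unnamed point at 1.63 is SFN, whose standard error was 1.17.

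Most of the squamous differentiation genes listed were under the filter, as were the basal and stress keratins found by name. Of all 37181 entries, only 16189 reached it, so being under the filter was common. Of 16 such genes 9 were listed, and only CNFN, a cornified envelope gene, was tested (log2 fold change 0.17, limma adjusted p = 0.414). The other 8 had means of at most 0.382 FPKM.

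The labelled cell type was checked on 10 markers of lung adenocarcinoma, of which 7 were found by name and 4 tested. EPCAM, an epithelial adhesion gene, was at 86.9 and 72.6 FPKM in HCC827 and at 7.32, 10.8 and 8.53 FPKM in HCC827/GR (log2 fold change -3.04, limma adjusted p = 0.00349). CDH1, which encodes E-cadherin, was at 34.8 and 25.9 FPKM in HCC827 and at 8.37, 7.79 and 5.50 FPKM in HCC827/GR (log2 fold change -1.93, limma adjusted p = 0.0125). The entry of NKX2-1, the lung lineage factor, which also holds SFTA3, fell from 4.30 ± 0.422 FPKM (SD, n = 2) in HCC827 to 0.714 ± 0.277 FPKM (SD, n = 3) in HCC827/GR (log2 fold change -1.64, limma adjusted p = 0.0115). The surfactant genes SFTPA1, SFTPB and SFTPC were under 0.14 FPKM in every library. EPCAM and CDH1 were thus present in both lines, while the alveolar surfactant markers were near 0 in both.

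Markers of other cells were sought in the same libraries. Of 9 fibroblast markers, all listed, 7 had means under 0.5 FPKM, a mean that only 16189 of all 37181 entries reached. COL1A1, which reached the filter, was at most 0.860 FPKM in any library. The list summed to 3.61 and 3.59 FPKM in HCC827 and to 3.09, 3.04 and 2.74 FPKM in HCC827/GR, and its most abundant entry, named PDGFRA, also holds FIP1L1. Of 6 leukocyte and endothelial markers 5 were listed, and they summed to 35.3 and 42.3 FPKM in HCC827 and to 34.7, 32.9 and 38.2 FPKM in HCC827/GR. Almost all of this came from the entry named CD68, which joins several other genes. PTPRC and VWF, which define leukocytes and endothelium, were at most 0.03 FPKM in any library. CDH5, another endothelial marker, was at 0.0749 and 0.0483 FPKM in HCC827 and at 0.00649, 0 and 0 FPKM in HCC827/GR. PECAM1 was at 4.34 and 3.32 FPKM in HCC827 and listed at 0 in HCC827/GR, and it reached the filter through HCC827 alone, in an entry that matched no annotated transcript.

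All type II keratin genes and KRT18 lie in one cluster on chromosome 12 from 52168996 to 52952901, and the other type I genes in one on chromosome 17 from 40654665 to 41624842. The 5 nearest tested protein-coding genes on each side of either cluster were compared with the members. Around the chromosome 12 cluster, the 10 neighbours GALNT6, SLC4A8, SCN8A, ACVR1B, ATG101, EIF4B, TNS2, SPRYD3, IGFBP6 and CSAD had log2 fold changes from -0.80 to 0.24, with a median of -0.14. With entries of one symbol summed, SLC4A8, SCN8A, ACVR1B and CSAD were at -0.66, -0.72, -0.97 and -0.47, and the others did not move. The median of the 10 is then clearly lower, so it depended on this choice. No neighbour there passed both thresholds by limma or with Ballgown's model, although 3 of them (ACVR1B, ATG101 and EIF4B) had an unadjusted p under 0.05, all of them lower. By that p alone, 13.8% of all entries tested were lower. With a pseudocount of 0.1, ACVR1B passed both by limma, at -1.01. Around the chromosome 17 cluster, the 10 neighbours CDC6, RARA, GJD3, TOP2A, IGFBP4, EIF1, JUP, P3H4, FKBP10 and NT5C3B had log2 fold changes from -1.84 to 0.45, with a median of -0.35. Of these only JUP, the plakoglobin gene described above, passed, and 3 of the 10 (JUP, TOP2A and RARA) had an unadjusted p under 0.05, all of them lower. Without HCC827 replicate 2, EIF1 and IGFBP4 were also beyond the fold threshold, at -1.32 and -1.64, whereas without HCC827 replicate 3 they were at -0.085 and 0.52. Without replicate 3, CDC6 was at -0.0242 and P3H4 at -0.0475, while RARA and JUP were lower than before, at -0.55 and -2.09. The median of these 10 neighbours thus depended strongly on that library. Beside these, KRT8 and KRT18 on chromosome 12 were at -0.75 and -0.93, the KRT7-KRT86 entry at -1.54 and KRT19 on chromosome 17 at -1.52. KRT8 thus changed about as much as its neighbour ACVR1B, at -0.80. Their order depended on the setting, since without HCC827 replicate 2 KRT8 was at -0.95 and ACVR1B at -0.82.

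Across the 5 libraries, the sum of KRT6A, KRT14, KRT16 and KRT17 was most like GNPDA1, OTUD4 and TMEM230 among 5451 genes with a mean of at least 5 FPKM, with Pearson r of 0.984, 0.983 and 0.978 on log2(FPKM + 1). They were picked as the highest of 5451 correlations over only 5 libraries, so a high r follows from the choice. These values only describe 5 libraries. The sum was highest in HCC827/GR replicate 2, where KRT17 was at 1.04 FPKM, and next in HCC827 replicate 3, where KRT16 was at 0.762 FPKM.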

How the data were processed

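The authors trimmed reads with Cutadapt, mapped them with Bowtie2 and TopHat2, and deposited gene values in FPKM made with StringTie and Ballgown. The submitters' processing notes name the build hg18, but the table has no coordinates, and versions are not given in the sources used here. The methods describe an rRNA-depleted mRNA library read from both ends, the labels a small-RNA library read from one. A further 1 FPKM column matched no sample and was left out, and the authors' comparison columns (fold changes and p-values) were not used.

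Symbols were matched to the table, taking the entry with the highest mean. Of 135299 Ensembl transcript identifiers, 135164 were found in GENCODE release 29 (GRCh38), the source of positions and sequences. HCC827/GR and HCC827 were compared with limma 3.58.1 in R 4.3.3 (two-sided moderated test, mean-variance trend) after taking log2(FPKM + 1). The 16189 entries whose mean reached 0.5 FPKM were tested, with Benjamini-Hochberg adjustment. Fold changes on this scale understate the change of low genes. In simulated data of 16189 entries, 35 of 100 changed by 1 and 64 of 100 changed by 2 on the log2 scale had an adjusted p under 0.05, as did 7 unchanged ones. The alternatives were a pseudocount of 0.1, other filters on low values, median-ratio, quantile or protein-coding scaling, no trend, Ballgown's model, a replicate block, summed entries or pseudogenes, and each library left out. Pseudogenes were aligned with blastn 2.17.0, and Python 3.11.15 with pandas 2.3.3 was used for summaries. The members, lists and tests were chosen with earlier results of these data known. Genes named were the members, other keratins and pseudogenes with a mean of at least 0.5 FPKM, list genes past both thresholds (at most 6 a list) and VIM, all neighbours of the clusters, and the 3 genes most like the basal and stress sum. Any other gene named, including the markers of cell types and CNFN, was picked after its values were seen.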

Additional observations from a re-analysis of the deposited data

How the results depend on the processing

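Log2 fold changes of KRT8, KRT18 and KRT19 stayed negative under all 16 alternatives, from -0.95 to -0.56, from -1.11 to -0.74 and from -1.67 to -1.36. Leaving out 1 library set these limits, and it moved the median of the 3 between -1.11 and -0.74 and the number of members lower between 1 and 2. Adding pseudogenes to their parents also gave 2 members lower, since KRT16 then passed, having reached the filter through HCC827 alone, and raised the basal and stress share in HCC827 to 1.75% (0.0675% to 0.0889% with either library left out). KRT19 passed the fold and p thresholds throughout, but its adjusted p ran from 0.0084 to 0.206 and was under 0.05 in 12 of 16 alternatives, against 8 of 16 for KRT18. Replicates 2 and 3 share a number between the lines, but deviations of same-numbered libraries were barely correlated (0.0328 and 0.0147), so the numbers do not show a pairing. With the replicate block, which leaves few residual degrees of freedom, the log2 fold changes were -0.82, -0.97 and -1.49 for KRT8, KRT18 and KRT19, with adjusted p of 0.265, 0.196 and 0.124. Ballgown's model gave adjusted p of 0.448, 0.327 and 0.206. With a library left out, a lone HCC827 library is assumed to vary as the HCC827/GR libraries do.

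With a pseudocount of 0.1, the log2 difference was -1.05 for KRT16, -0.71 for KRT6A and 1.38 for KRT17. The same pseudocount enlarged the log2 fold changes of entries with low values, to -6.88 for KRT16P1, -4.50 for KRT16P3, -2.13 for the KRT15-MIR6510 entry, -5.37 for GRHL2, -4.39 for EHF, -3.92 for OVOL1 and -2.49 for NKX2-1. Small changes turned direction in KRT18P12 (0.045 under quantile normalization, -0.11 to 0.022 with a library left out), SCN8A (0.052 under quantile normalization) and GALNT6 (-0.12 with Ballgown's model, -0.098 to 0.24 with a library left out). SCN8A moved furthest with entries of one symbol summed, to -0.72. Leaving out a library gave -0.079 to 0.37 for SPRYD3, -0.31 to 0.36 for IGFBP6, -0.0083 to 0.90 for GJD3, -1.64 to 0.52 for IGFBP4 and -0.011 to 0.13 for FKBP10. The cause was not tested. VIM, KLF4 and OVOL1 did not pass the thresholds with Ballgown's model, nor with HCC827 replicate 2 (VIM) or 3 (KLF4 and OVOL1) left out. The depth of the libraries is unknown, which limits every value under 1 FPKM.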
